A study of Rattus norvegicus with 6 samples.

Results

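The β-cell identity transcription factors Pdx1, Mafa, Nkx6-1, Nkx2-2, Neurod1, Pax6, Pax4, Isl1, Insm1 and Rfx6 were followed in rat β-cells depleted of COUP-TFII. These 10 genes were taken by name, without use of a measured value, and every probe set annotated to them was read. Of the 10, 8 had a named probe set among 14217 gene symbols on the array, which gave 9 probe sets of 31042 tested, since Isl1 had a pair. Insm1 and Rfx6 had none and were not analysed here. The RNA came from the rat insulinoma line 832/13 INS-1, an insulin-secreting clone grown in medium with 11 mM glucose and used between passages 7 and 25. The cells were electroporated with COUP-TFII siRNA (COUP-TFII depleted cells, 3 Affymetrix rat arrays) or with scrambled siRNA (control cells, 3 arrays), and the methods give 48 h of culture afterwards for such cells. All cells carried an siRNA and none were left untreated. The line is 1 tumour-derived clone in culture, so the arrays stand for replicates of that clone and not for animals. The labels call the replicates biological without saying whether they were separate electroporations, and p-values measure only the spread between these arrays.

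In the pancreas these factors act in a network. Pdx1 and Neurod1 bind the insulin promoter together with Mafa, Pax6 and Isl1, and Nkx6-1 and Nkx2-2 hold the β-cell fate against the fates of the other islet cells. Pax4, Insm1 and Rfx6 act while endocrine progenitors differentiate. COUP-TFII, encoded by Nr2f2, is a nuclear receptor that binds repeats of the motif AGGTCA, and the comparison asks what its loss changed in the RNA of these cells.

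None of the 8 measured factors was called different between COUP-TFII depleted and control cells at an adjusted p under 0.05. The unpaired limma fit called 0% of all probe sets, and the siRNA target Nr2f2 was not called either. The lack of a call therefore does not show that a factor was unchanged. The unpaired 95% intervals still allowed a fold of 0.468 for Nkx6-1 and of 1.97 for Mafa. Over the 7 factors that read above background the fitted log2 difference ran from -0.45 for Nkx6-1 to 0.21 for Mafa, where a negative value means less signal in COUP-TFII depleted cells. Of these 7, Mafa varied most between the replicate numbers that arrays of both groups share, with replicate 1 low in both. Nkx2-2 was the one factor whose COUP-TFII depleted arrays all read above the control arrays, by a small margin.

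Each probe set pools several short probes to the same transcript, and its linear MAS5 intensity, as the authors deposited it, is called its signal. Signals under 1 were set to 1 for log2. The Nr2f2 probe set 1389554_at, which reads the siRNA target, gave 47.0, 27.7 and 23.8 in COUP-TFII depleted cells against 182, 235 and 179 in control cells. The fitted log2 fold change of -2.65 had an SE of 0.30, and the groups lay far apart. The adjusted p of limma was 0.404 in the unpaired fit and 0.0185 with the replicate number as a block. Nr2f2 1370063_at also lay lower without overlap (log2 fold change -1.71), while the dim 1395863_at gave -0.37. The 27 Bacillus control probe sets, to which no rat RNA should bind, reached 20.7 at most, and a probe set with both group means at or below that signal is called dim. The median signal per array ran from 29.9 to 39.4. The median of the 4 bioC hybridization control probe sets was 99.4 and 130.5 on the replicate 2 arrays and 492 to 537 on the other 4 arrays. The part of this in the values of replicate 2 was not tested. Probes differ in brightness, so signals are not compared between genes, and a signal summed over a list is compared only between arrays. In bulk RNA, fewer cells of a type and less RNA per cell cannot be told apart.

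Promoter windows show which of these genes carry letters that the factors can read. RefSeq (GRCr8) windows of 250 bases before and 50 after the start were at hand for 7 of the 10 factors, all but Mafa, Insm1 and Rfx6. They are printed for the 2 insulin genes, where the factors converge, and for Nkx6-1 and Nkx2-2, the factors with the lowest unadjusted p in the unpaired limma fit (0.153 and 0.234), each 5′ to 3′ on the gene's strand. Capitals mark the E-box CANNTG, read by Neurod1 with its partners, and the homeodomain core TAAT on either strand, so ATTA is marked too.
Ins1, chr1:261185869-261186168, plus strand: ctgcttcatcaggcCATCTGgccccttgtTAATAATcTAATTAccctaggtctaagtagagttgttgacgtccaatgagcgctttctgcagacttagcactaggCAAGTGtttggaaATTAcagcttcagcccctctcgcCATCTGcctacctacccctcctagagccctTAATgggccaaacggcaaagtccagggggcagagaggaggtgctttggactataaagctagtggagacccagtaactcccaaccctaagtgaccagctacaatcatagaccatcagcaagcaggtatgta
Ins2, chr1:207273756-207274055, minus strand: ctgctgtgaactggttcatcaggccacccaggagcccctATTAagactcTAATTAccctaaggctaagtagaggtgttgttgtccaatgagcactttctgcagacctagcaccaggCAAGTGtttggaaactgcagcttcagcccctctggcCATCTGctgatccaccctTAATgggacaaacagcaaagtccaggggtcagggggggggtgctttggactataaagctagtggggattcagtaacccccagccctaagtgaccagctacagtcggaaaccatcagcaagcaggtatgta
Nkx6-1, chr14:8273988-8274287, plus strand: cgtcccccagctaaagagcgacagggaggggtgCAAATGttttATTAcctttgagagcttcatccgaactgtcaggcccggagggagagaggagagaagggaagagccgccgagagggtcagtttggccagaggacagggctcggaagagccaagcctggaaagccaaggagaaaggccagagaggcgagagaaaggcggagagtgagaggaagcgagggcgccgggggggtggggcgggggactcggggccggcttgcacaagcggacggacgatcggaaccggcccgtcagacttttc
Nkx2-2, chr3:155075573-155075872, minus strand: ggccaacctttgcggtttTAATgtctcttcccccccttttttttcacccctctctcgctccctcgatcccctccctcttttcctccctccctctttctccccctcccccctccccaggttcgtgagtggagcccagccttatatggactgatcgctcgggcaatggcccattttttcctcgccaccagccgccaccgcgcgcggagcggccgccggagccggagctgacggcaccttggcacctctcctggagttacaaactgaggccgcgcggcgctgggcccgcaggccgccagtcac
The Ins1 window held 3 E-boxes and 6 cores, some of which overlap, and the Ins2 window 2 and 4. Among the factors, Nkx6-1 and Isl1 held 1 of each, Nkx2-2 held 1 core, Pdx1 held 3 E-boxes, Neurod1 and Pax4 held 1 E-box, and Pax6 held neither. Of 27457 RefSeq promoters of this length, 71.6% held the E-box and 59.7% the homeodomain core. The COUP-TFII motif AGGTCA, searched on both strands, had 0 matches in the 7 windows of factors and in those of Ins1 and Ins2, and 15.7% of all promoters held it. A match is a description and not a site, and no match says only that the letters are not in this window.

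**Figure D1:**
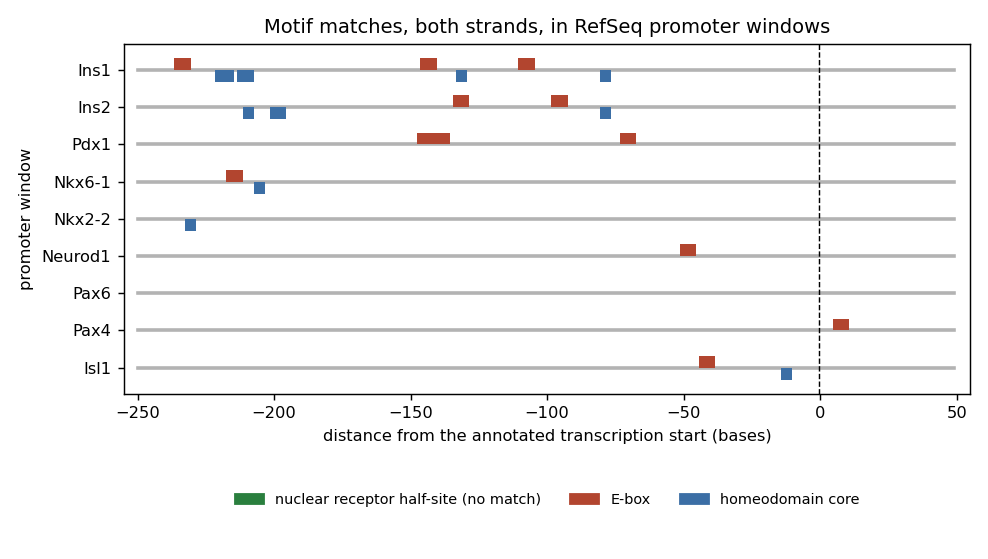
Positions of the E-box CANNTG and the homeodomain core TAAT in the promoter windows of 7 β-cell identity factors and of Ins1 and Ins2, in bases from the RefSeq start (x axis). Ins1 carries the most matches (3 E-boxes and 6 cores) and Pax6 none.

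Of the factors that specify endocrine cells, Neurod1 is a bHLH activator that heterodimerizes with E proteins on E-boxes of the insulin genes. Neurod1 gave 2706, 2555 and 3042 in COUP-TFII depleted cells against 2998, 2553 and 2837 in control cells. The groups overlapped fully, and replicate 2 was the lowest array in both. The means were 2768 ± 249 and 2796 ± 226 (SD, n = 3 each), and the log2 fold change was -0.02 with a 95% interval from -0.34 to 0.31, which as a fold is 0.788 to 1.24. It turned to 0.04 when COUP-TFII siRNA replicate 2 was left out, and likewise for scrambled siRNA replicate 1.

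Nkx2-2, a homeodomain factor that represses α- and ε-cell genes in the β-cell lineage, gave 407, 385 and 423 in COUP-TFII depleted cells against 381, 383 and 311 in control cells. All 3 COUP-TFII depleted arrays lay above all 3 control arrays, but the lowest of them exceeded the highest control array by little. The means were 405 ± 19.2 and 358 ± 41 (SD, n = 3 each). The log2 fold change was 0.18 (SE 0.14, 95% interval -0.14 to 0.51), and it was not called (limma adjusted p = 1). A two-sided exact permutation test gave p = 0.1, the smallest that 3 against 3 arrays allow. The pairs of arrays with the same replicate number differed by 0.10, 0.01 and 0.45 on the log2 scale, so most of the difference lay in replicate 3. Without scrambled siRNA replicate 3 the log2 fold change was 0.08. Of all probe sets, 3.24% had COUP-TFII depleted arrays wholly above the control arrays, against this 1 of 9 for the factors, and 3.45% had them wholly below, against 0 of 9.

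Pax4, a paired-box repressor needed for the β- and δ-cell lineages and little used in mature β-cells, was dim. It gave 13.3, 7.68 and 17.8 in COUP-TFII depleted cells against 17.5, 12.6 and 1.58 in control cells. The groups overlapped, and the fitted log2 fold change of 0.80 (SE 0.97) was -0.28 without scrambled siRNA replicate 3, the single array far below the rest.

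Of the factors that maintain mature β-cells, Pdx1 is the homeodomain activator of Ins1, Ins2, Slc2a2 and Iapp. Pdx1 gave 391, 414 and 429 in COUP-TFII depleted cells against 505, 472 and 408 in control cells. The COUP-TFII depleted arrays lay close together, and control replicate 3 fell among them. The means were 411 ± 19.1 and 462 ± 49.1 (SD, n = 3 each). The log2 fold change was -0.16 (SE 0.14, 95% interval -0.48 to 0.15), and limma did not call it (adjusted p = 1). As a fold the interval runs from 0.717 to 1.11. By pairs the log2 difference was -0.37, -0.19 and 0.07, so the sign was not shared by all 3. Left out one at a time, the control arrays gave the extremes, -0.25 for replicate 3 and -0.10 for replicate 1.

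Mafa, the bZIP factor of mature β-cells that binds the insulin promoter in response to glucose, gave 521, 1061 and 1114 in COUP-TFII depleted cells against 513, 1039 and 738 in control cells. Replicate 1 was the lowest array in both groups, and in replicates 1 and 2 the paired arrays nearly coincided. The highest array exceeded the lowest 2.14-fold among COUP-TFII depleted arrays and 2.02-fold among control arrays. The means were 899 ± 328 and 763 ± 264 (SD, n = 3 each), and the groups overlapped. The log2 fold change of 0.21 had a 95% interval from -0.54 to 0.97. All 3 pairs were higher in COUP-TFII depleted cells, by 0.02, 0.03 and 0.59, and only replicate 3 contributed more than a trace. The fit with the replicate block narrowed the interval to -0.05 to 0.48 without a call (adjusted p = 0.803). The value was 0.57 when COUP-TFII siRNA replicate 1 was left out, and it turned to -0.04 when scrambled siRNA replicate 1 was.

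Nkx6-1, a homeodomain repressor that keeps β-cells from taking on α-cell genes, gave 127, 76.1 and 158 in COUP-TFII depleted cells against 191, 136 and 149 in control cells. COUP-TFII depleted replicates 1 and 2 lay below every control array, and replicate 3 did not. Replicate 2 was the lowest array of each group. The means were 120.4 ± 41.4 and 159 ± 28.6 (SD, n = 3 each). The log2 fold change of -0.45 (SE 0.28) had a 95% interval from -1.09 to 0.20 and was not called in the unpaired fit (limma adjusted p = 1). By pairs it was -0.59, -0.84 and 0.09. With the replicate block the unadjusted p was 0.0331, the interval ran from -0.85 to -0.04, and the adjusted p was 0.797. Among COUP-TFII depleted arrays, leaving out replicate 2 gave -0.15 and leaving out replicate 3 gave -0.67. It was -0.25 without both replicate 2 arrays, which carry the low bioC controls.

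Pax6 and Isl1 serve hormone genes in all islet cell types, Pax6 as a paired-box homeodomain activator and Isl1 as a LIM-homeodomain factor that acts with Ldb1. Pax6 gave 3316, 3435 and 3346 in COUP-TFII depleted cells against 3688, 3243 and 3851 in control cells. The COUP-TFII depleted arrays fell inside the range of the control arrays. The means were 3366 ± 62.3 and 3594 ± 314 (SD, n = 3 each), and the log2 fold change was -0.09 (95% interval -0.41 to 0.23). It ran from -0.16 to -0.04 with 1 array left out, and it was -0.18 without both replicate 2 arrays.

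Isl1 1369681_at gave 559.9, 595 and 498 in COUP-TFII depleted cells against 547, 705 and 479 in control cells. Replicate 2 was the highest and replicate 3 the lowest array in both groups, so the order of the replicates was shared. The means were 551 ± 48.7 and 577 ± 116 (SD, n = 3 each). The log2 fold change was -0.05 (95% interval -0.44 to 0.34). It turned to 0.02 when COUP-TFII siRNA replicate 3 was left out, to 0.10 when scrambled siRNA replicate 2 was, and to 0.05 without both replicate 2 arrays. The other Isl1 probe set, 1396895_at, was dim and gave 11.5, 1.76 and 11.9 against 10.5, 5.4 and 20.6, with a log2 fold change of -0.76 (SE 0.94), and 0.15 without COUP-TFII siRNA replicate 2.

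**Figure D2:**
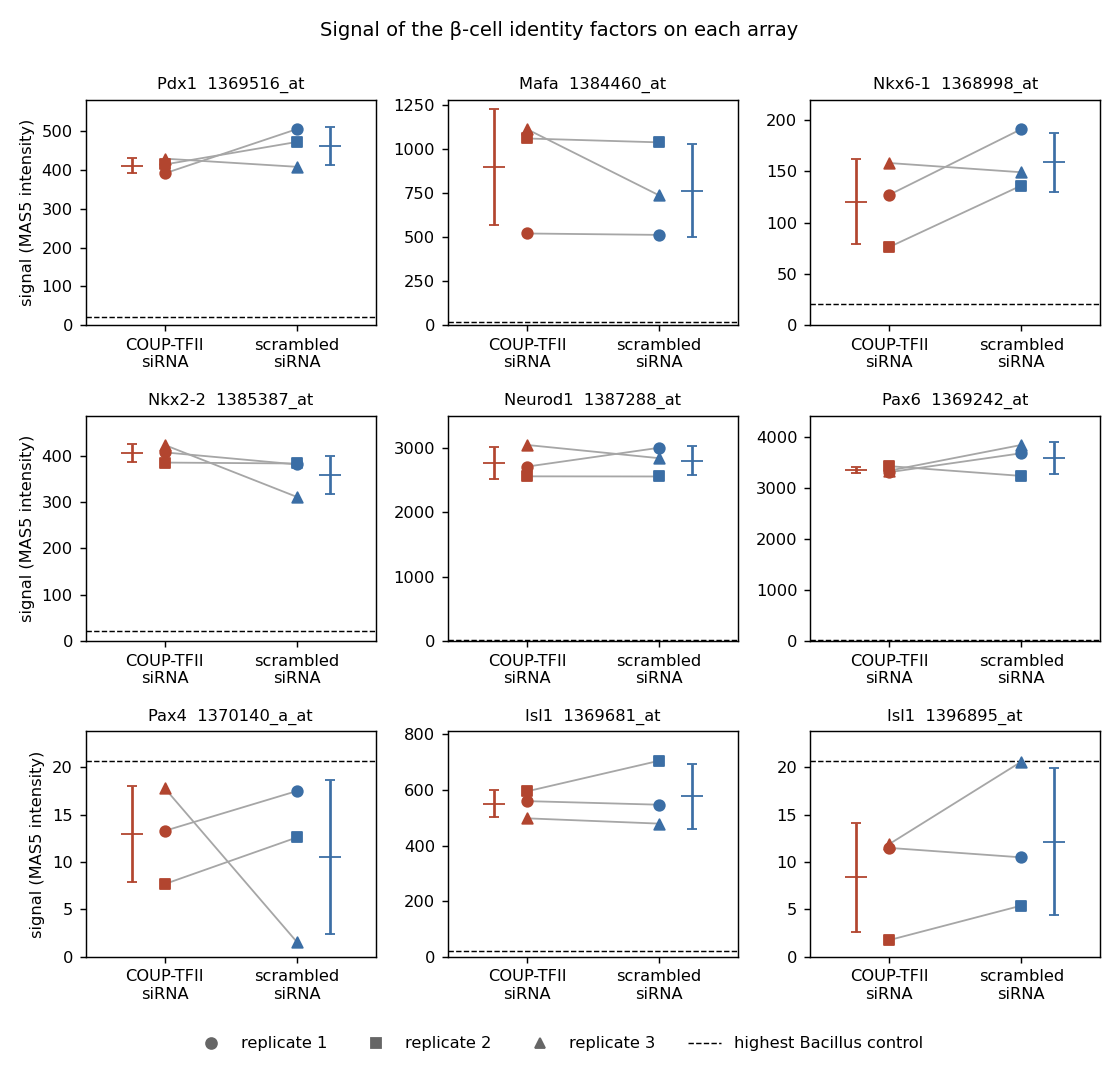
MAS5 signal (y axis, one panel per probe set, each from 0) of the 9 probe sets of the β-cell identity factors on 3 COUP-TFII siRNA and 3 scrambled siRNA arrays, with mean ± SD beside the points and the highest Bacillus control (20.7) as a dashed line. Each line connects a pair with 1 replicate number, and the pairs lie close for Mafa replicates 1 and 2 while Nkx2-2 is the panel without overlap.

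Over the list, the unpaired limma fit called 0 of the 9 probe sets at an adjusted p under 0.05, as it did for 0% of all probe sets. At an unadjusted p up to 0.05 it called 0 of 9, where 2.31% of all probe sets passed, 0.973% higher and 1.34% lower. The methods' t-test called 0 of 9 as well, where 3.14% of all probe sets passed unadjusted and 0.00322% adjusted. With the replicate block 1 of 9 passed unadjusted, Nkx6-1 on the lower side, where 3.51% of all probe sets passed lower and 2.72% higher. Adjusted, the block called 0 of 9, and 0.0161% of all probe sets. By the brightest probe set of each factor the COUP-TFII depleted mean lay above the control mean for 3 and below it for 5. Their median log2 fold change was -0.034, beside -0.003 over all probe sets, of which 49.6% had the higher mean in COUP-TFII depleted cells. All 3 pairs went the same way for 2 of 9 probe sets, Mafa and Nkx2-2, and for 27.4% of all probe sets. Among probe sets that were not dim, the lowest fold that the unpaired 95% interval allowed was 0.788 for Neurod1, 0.752 for Pax6 and 0.737 for Isl1 1369681_at. It was 0.717 for Pdx1, 0.685 for Mafa and 0.468 for Nkx6-1. The highest was 1.97 for Mafa and 1.42 for Nkx2-2. The intervals of the dim probe sets were wider, 0.377 to 8 for Pax4 and 0.134 to 2.6 for Isl1 1396895_at.

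**Figure D3:**
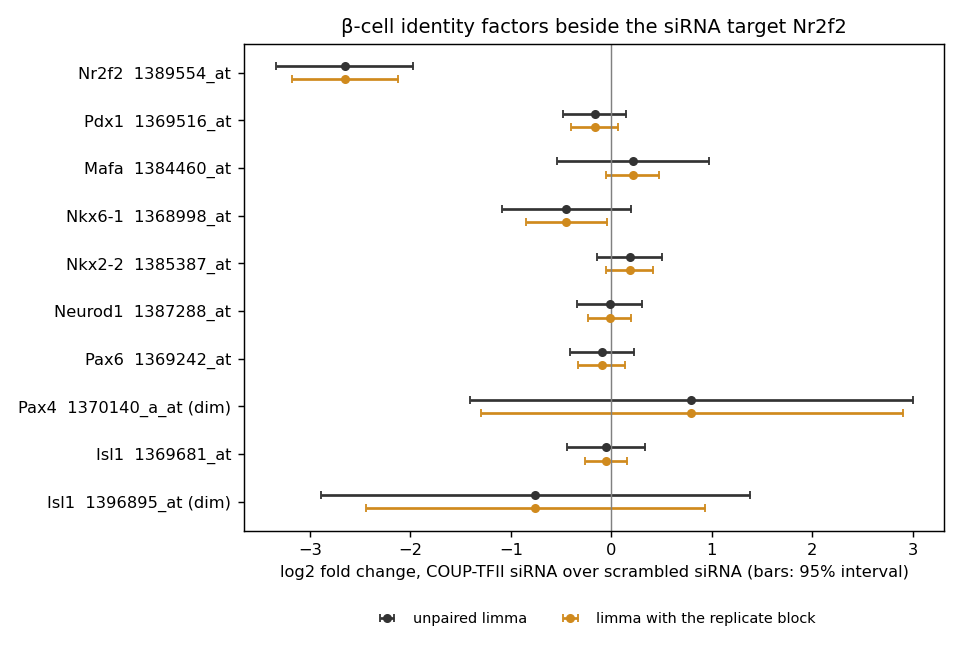
Log2 fold change of COUP-TFII siRNA over scrambled siRNA (x axis) with 95% intervals, from the unpaired limma fit and from limma with the replicate block, for Nr2f2 1389554_at and the 9 factor probe sets. Nr2f2 stands at -2.65, and the unpaired interval of every factor includes 0.

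Arrays of both groups share a replicate number, and the signals of the factors are described by it here, without a test. The measure was the span, on the log2 scale, between the highest and the lowest of the 3 means of same-numbered arrays. A span of 3 means of 2 arrays tends to exceed a difference of 2 means of 3 arrays, and it did so for 5 of the 7 factors that were not dim and for 88.1% of all probe sets that were not dim, so nothing is read from that count. It was 1.02 for Mafa beside an siRNA difference of 0.21, 0.61 for Nkx6-1 beside -0.45, and 0.41 for Isl1 beside -0.05. For Neurod1 it was 0.20 and for Pax6 0.10. Pdx1 and Nkx2-2 had spans of 0.09 and 0.12. The median over all probe sets that were not dim was 0.48, so the spans of Mafa and Nkx6-1 lay above it and those of the other 5 factors below. Glucagon (Gcg), the α-cell hormone that Nkx6-1 represses, had a span of 3.65, with 8056, 4789 and 817 in COUP-TFII depleted cells against 6313, 3397 and 394 in control cells. Gcg was lowest in replicate 3 of both groups, whereas Mafa was lowest in replicate 1 and Nkx6-1 in replicate 2, so the factors did not share 1 order of replicates. The passage of each array is not given, and its part in these spans was not tested.

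**Figure D4:**
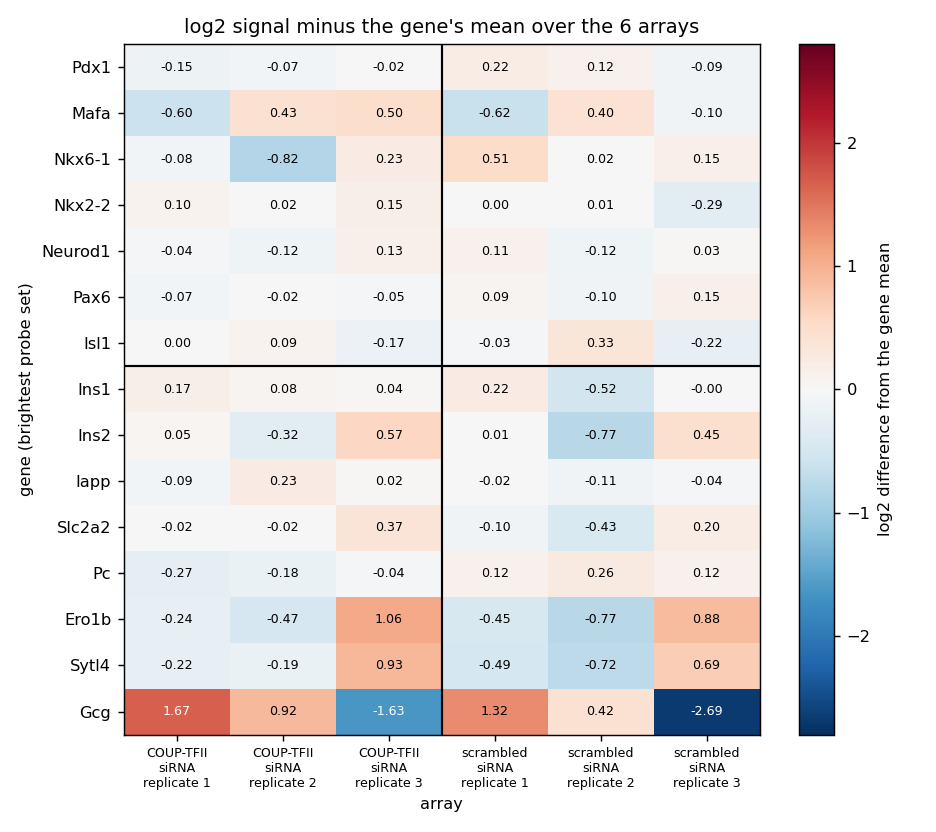
Log2 signal of each gene (rows) on each of the 6 arrays (columns), as the difference from the gene's mean over the arrays, for 7 factors that were not dim and for 8 genes that the factors or the α-cell lineage are known by. Mafa is low in replicate 1 and Gcg in replicate 3 of both groups.

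The genes known to be bound or regulated by these factors gave 19 of 25 with a named probe set, all above background, of which 12 had the higher mean in COUP-TFII depleted cells and 7 the lower. Of all probe sets 49.6% had the higher mean in COUP-TFII depleted cells. The median log2 fold change of the target genes was 0.073. The unpaired fit called 0 of 19, adjusted or unadjusted, where 2.31% of all probe sets passed unadjusted. The methods' t-test called 1 of 19 unadjusted, Pc, on the lower side, where 3.14% of all probe sets passed in either direction. These counts take the brightest probe set of each gene. With the replicate block 2 of these passed higher, Ero1b and Sytl4, and 1 passed lower, Pc, at an unadjusted p up to 0.05 (adjusted p = 0.72 or above for each). Of all probe sets, 2.72% passed higher and 3.51% lower in that fit. A dimmer probe set of Syt4, a synaptotagmin, also passed higher (1387662_at, log2 fold change 0.32, unadjusted p = 0.019), where the brightest gave -0.03, and it was named after its values were seen.

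Insulin is the main product of the network. Ins1 gave 15306, 14386 and 13966 in COUP-TFII depleted cells against 15843, 9490.4 and 13544 in control cells, so control replicate 2 stood apart as low. Ins2 gave 5713, 4415 and 8198 against 5539, 3229.7 and 7535, in the same order of replicates in both groups. The log2 fold changes were 0.20 (95% interval -0.32 to 0.71) for Ins1 and 0.21 (-0.55 to 0.96) for Ins2. The 2 genes are near-identical copies, so probes of one may read the other. Iapp, which encodes the co-secreted amylin, gave 9238, 11474 and 9968 against 9663, 9107 and 9566, with overlap and a log2 fold change of 0.11. Slc2a2, the glucose transporter GLUT2 that Pdx1 activates, gave 5165, 5177 and 6780.2 against 4889, 3886 and 6029.5. It was higher in all 3 pairs with a log2 fold change of 0.22 (95% interval -0.25 to 0.69) and was not called (limma adjusted p = 1).

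Pc, pyruvate carboxylase, which refills the citric acid cycle in β-cells, gave 96.5, 103 and 113 in COUP-TFII depleted cells against 126, 139 and 126 in control cells. The groups did not overlap. The log2 fold change was -0.32 (SE 0.18), the same in sign in all 3 pairs, and limma did not call it (adjusted p = 1 unpaired and 0.797 with the replicate block). Fgfr1, a receptor tyrosine kinase controlled by Pdx1 in mouse β-cells, gave 102, 97.9 and 111 against 110.1, 126 and 136, with a log2 fold change of -0.26 at 1372447_at and 0.02 at 1387498_a_at. The 2 probe sets of Fgfr1 therefore differed in sign. Sytl4, the granule protein granuphilin, gave 325, 334 and 724 against 271, 230.0 and 612, and Ero1b, an oxidase of proinsulin folding, gave 229, 195 and 562 against 197, 158 and 496. Both were higher in all 3 pairs, by 0.24 to 0.54 for Sytl4 and 0.18 to 0.31 for Ero1b on the log2 scale, while replicate 3 exceeded the other replicates far more in both groups. Sytl4 and Ero1b were named after their values were seen.

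**Figure D5:**
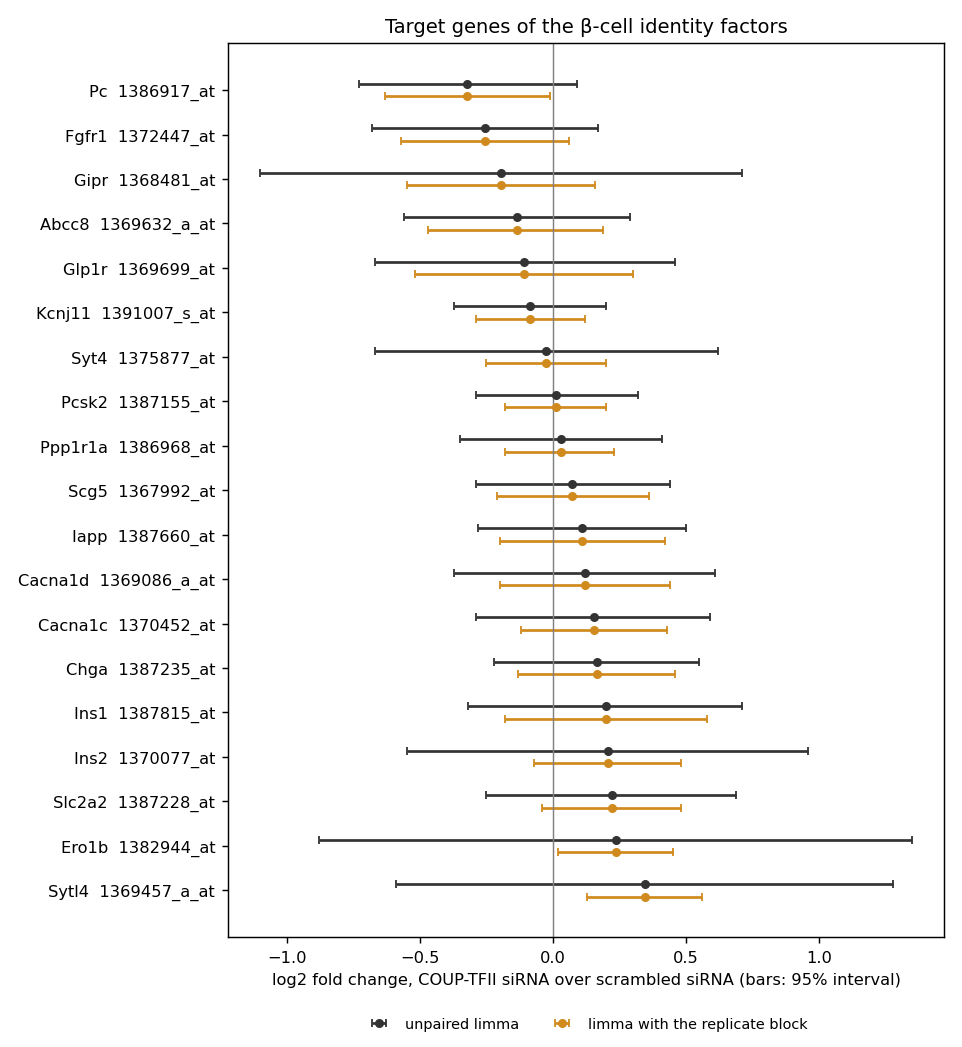
Log2 fold change of COUP-TFII siRNA over scrambled siRNA (x axis) with 95% intervals, from the unpaired limma fit and from limma with the replicate block, for the brightest probe set of each of the 19 measured genes that the factors are known to bind or regulate. The unpaired intervals all include 0, and those of Ero1b, Sytl4 and Pc exclude it with the block.

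Of 24 other islet transcription factors 19 were measured and are counted by the brightest probe set, 8 of them dim, with 8 higher and 11 lower by the mean and a median log2 fold change of -0.037. Of all probe sets 37.5% were dim and 49.6% were higher by the mean. The unpaired fit called 0 of 19, adjusted or unadjusted, where 2.31% of all probe sets passed unadjusted. With the replicate block 3 of 19 passed lower unadjusted, where 3.51% of all probe sets did. Prox1, a homeobox factor of pancreatic progenitors and non-β islet cells, gave 187, 189 and 170.2 in COUP-TFII depleted cells against 216, 264 and 206 in control cells at 1376672_at. These groups did not overlap, and the log2 fold change was -0.32 (SE 0.16, adjusted p = 0.777 with the block in limma). St18, a zinc finger factor of the Myt family, gave 314, 127 and 332 against 328, 239 and 409, and it was lowest in replicate 2 of both groups as Nkx6-1 was. Hes1, the Notch effector that represses endocrine differentiation, gave 192, 144 and 107 against 179, 204 and 183, lower in 2 of 3 pairs. St18 and Hes1 were named after their values were seen. Gata6, needed for early pancreas growth, gave log2 fold changes of -0.63 and -0.44 at its pair of probe sets, and the dim Irx1 gave 1.80 and -0.10, none called.

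Of 22 cofactors and dimer partners 20 were measured, with 10 higher and 10 lower and a median log2 fold change of -0.001. By the brightest probe set of each gene the unpaired fit and the fit with the block called 0 of 20, adjusted or unadjusted. Of all probe sets, 2.31% passed unadjusted in the unpaired fit, and 2.72% higher and 3.51% lower with the block. Of the dimmer probe sets of these genes 1 passed unadjusted with the block, Smarca4 1375469_at (log2 fold change 0.36, unadjusted p = 0.0227). The brightest Smarca4 probe set gave -0.09. Smarca4, a chromatin remodelling ATPase, was named after its values were seen. The E protein Tcf4, a possible partner of Neurod1, gave 7.6, 5.3 and 19 in COUP-TFII depleted cells against 28, 11.9 and 24.1 in control cells, near background throughout (log2 fold change -1.13, SE 0.69). Tcf12, another E protein, gave 0.22 at its brighter probe set and -0.17 at the other. Ssbp3, which stabilizes the Ldb1 complexes in which Isl1 acts, gave -0.17 (SE 0.17).

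Markers of other cell types were read beside the factors. Of the β-cell markers 4 of 8 were measured, all higher by the mean and none called, with summed signals of 35422 to 38913 in COUP-TFII depleted cells and 25713 to 36674 in control cells. These 4, Ins1, Ins2, Iapp and Slc2a2, were also counted among the target genes. Each differed most in the replicate 2 pair, by 0.33 to 0.60 on the log2 scale, against -0.06 to 0.17 in the other pairs. The replicate 2 arrays carry the low bioC controls, whose part here was not tested. Of the α-cell markers 6 of 8 were measured and 3 were dim. By the mean 5 of 6 were higher, where 49.6% of all probe sets were higher. The median log2 fold change of the 6 was 0.944, with the 3 dim genes counted in. It was 0.633 over the others, Gcg, Ttr and Slc7a2, and Slc7a2 was not dim only through its COUP-TFII depleted mean. Ttr was lower by the mean (log2 fold change -0.57), with pair differences of -1.84, 0.10 and 0.04, so only the replicate 1 pair was lower. The unpaired fit passed 1 of 6 higher unadjusted, the same Slc7a2, where 0.973% of all probe sets passed higher. With the block in limma 2 of 6 passed higher unadjusted, where 2.72% of all probe sets did. The unadjusted p was 0.00105 for Gcg and 0.0202 for Slc7a2 in that limma fit. The sum of the α-cell markers ran from 914 to 8129.6 in COUP-TFII depleted cells and from 452 to 6379.5 in control cells. Gcg was higher in all 3 pairs, by 0.35, 0.50 and 1.05 on the log2 scale (limma adjusted p = 0.566 with the block). In the unpaired fit its log2 fold change was 0.63 (SE 1.07, 95% interval -1.81 to 3.08). Slc7a2, an amino acid transporter of α-cells, gave 20, 27.3 and 32.9 against 7.33, 8.97 and 11.4 without overlap (log2 fold change 1.53, adjusted p = 1 in limma). It was near background, with a control mean of 9.23, and only its COUP-TFII depleted mean of 26.7 kept it from being dim. Of all probe sets, 3.24% lay higher without overlap and 3.45% lower. Slc7a2 was named after its values were seen. Somatostatin (Sst) and ghrelin (Ghrl) were dim, and pancreatic polypeptide (Ppy) averaged 24.8 and 26.7 in COUP-TFII depleted and control cells. All 4 δ-cell markers, 7 of 8 acinar markers, 3 of 5 duct markers and 6 of 8 markers of mesenchyme, endothelium and blood were dim. Of all probe sets 37.5% were dim. The summed signals in COUP-TFII depleted and control cells were 35 to 39.2 and 19.7 to 38.5 for δ-cells, 32.6 to 46.5 and 28.6 to 40.4 for PP- and ε-cells, and 70.4 to 129.9 and 92.7 to 122 for acinar cells. They were 426 to 476 and 495 to 569 for duct, and 105 to 112 and 87.8 to 154 for mesenchyme, endothelium and blood. The duct marker Krt7, which made up most of the duct sum, gave 372, 396 and 431 in COUP-TFII depleted cells against 442, 532 and 432 in control cells. The leukocyte marker Ptprc, which was dim, gave 1.2, 3.94 and 1.8 against 4.91, 7.12 and 15.9 without overlap (limma unadjusted p = 0.0339, adjusted p = 1). The other Ptprc probe set, 1370603_a_at, was also dim, and its groups overlapped (log2 fold change -0.34). Krt7 and Ptprc were named after their values were seen. The part of these markers in the values of the factors was not tested.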

How the data were processed

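Total RNA of 832/13 INS-1 cells was hybridized to 6 Affymetrix rat arrays. The authors computed a MAS5 signal for each probe set, background-subtracted and normalized with reference probes, and deposited it as a linear intensity without detection calls. The version of MAS5 is not given in the sources used here. Of 31099 probe sets 57 controls were left out. On each array 1.85% to 5.49% of the signals lay under 1 and were raised to 1 before log2, and no further normalization was applied. Groups were compared over 31042 probe sets with limma 3.58.1 in R 4.3.3 (lmFit, eBayes with an intensity trend), two-sided, unpaired, with Benjamini-Hochberg adjustment. Single probe sets were also compared by exact permutation tests in scipy 1.17.1 (Python 3.11.15), and figures were drawn with matplotlib 3.10.9. The fits were checked on simulated data. The number of arrays limits the precision.

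Symbols came from the platform annotation (1 symbol for 20826 probe sets, several for 436, none for 9780), and promoter windows from RefSeq (GRCr8). The labels number the replicates 1 to 3 in both groups. Deviations from the group means correlated at 0.111, 0.231 and 0.163 for same-numbered arrays and from -0.146 to -0.0104 for the others. Deviations cancel within a group, so negative values for the others follow from the positive ones and add no separate evidence. The numbers were used to pair the arrays in the fit with the replicate block and in the pair differences, while the main fit stayed unpaired. The factors and lists were chosen with earlier results of these data known. The text names every probe set of the factors and of Nr2f2, the hormone genes, of the target, other islet factor and partner lists the genes with an unadjusted p up to 0.05 in the unpaired fit and the 3 of each with the lowest p, and for each factor the target or partner gene whose signals were most alike. Results were recomputed with the methods' t-test, without the intensity trend, with median centring, quantile normalization, a pseudocount of 16, the replicate block, 2 filters that dropped dim probe sets, and with each array left out.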

Additional observations from a re-analysis of the deposited data

How the results depend on the processing

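Pairing by replicate number raised the counts of unadjusted calls, and filters on dim probe sets lowered them over all probe sets. At an unadjusted p up to 0.05, 717 probe sets passed in the unpaired limma fit and 1933 with the replicate block, 1981 with the block after quantile normalization and 2038 with the block on log2(signal + 16). The counts at an adjusted p under 0.05 were 5, 4 and 2 in these 3 fits, 1 by the methods' t-test and 0 unpaired. The factors had 1, 2 and 1 unadjusted calls in the 3 block fits, where Pax6 joined Nkx6-1 after quantile normalization (unadjusted p = 0.0493). The target genes had 3, 2 and 2, and 1 by the methods' t-test, and the other islet factors had 3, 2 and 3. The filter at the highest Bacillus control left 259 unadjusted calls among 19389 probe sets and the filter at the median signal 180 among 15521, and limma without the intensity trend gave 1056. Quantile normalization turned the median of the target genes to -0.026, with or without the block. The block changed no other call of a factor. Combinations of the block and the leaving out of both replicate 2 arrays were chosen after the data were seen.

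With 1 array left out, unadjusted calls ran from 640 to 932 over all probe sets, 0 to 1 for the factors (1 without COUP-TFII siRNA replicate 3), 0 for the target genes, 0 to 2 for the other islet factors and 0 to 1 for the partners. The median of the target genes ran from -0.047 to 0.131. Without both replicate 2 arrays 1 of the 19 other islet factors passed unadjusted, on the higher side, where 326 of 31042 probe sets passed higher. The sign turned for Mafa (-0.04 to 0.57), Neurod1 (-0.09 to 0.04), Pax4 (-0.28 to 1.45), Isl1 1369681_at (-0.18 to 0.10, and 0.05 without both replicate 2 arrays) and Isl1 1396895_at (-1.24 to 0.15). The cause was not tested. Pdx1, Nkx6-1, Nkx2-2 and Pax6 kept their sign under the alternatives run. Dim signals limit Pax4 and Isl1 1396895_at, whose values lie at the level of the Bacillus controls.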

Other observations

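Among the 39 measured target and partner genes, the gene most like each factor over the 6 arrays was taken by Pearson's r of log2 signals, as a description with no test, since the highest of 39 values is high by selection and arrays share their replicate numbers. Mafa was most like Kdm1a, a histone demethylase (r = 0.94), and Neurod1 was most like Gipr, the receptor of the incretin GIP (r = 0.92). Nkx6-1 was most like the near-background Tcf4 (r = 0.90), and Pax6 was most like the DNA methyltransferase Dnmt3a (r = 0.89). Pdx1 was most like Kcnj11, the pore subunit of the K-ATP channel (r = 0.80), and Isl1 was most like Psmd9, a proteasome assembly factor (r = 0.79). Tle3, a Groucho corepressor, was the gene most like Nkx2-2 (r = 0.70) and the dim Pax4 (r = 0.81).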
